A study of Mus musculus with 37 samples.

Results

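The genes described here encode the subunits of the proteasome and the proteins that assemble, cap or inhibit it. They were taken by symbol: every gene whose symbol consists of Psm, 1 letter from a to g and a number, and nothing further, in both deposited expression tables. The rule found 48 of the 55401 genes listed. By role they were 7 subunits of the outer alpha ring (Psma1 to Psma7), the germline alpha subunit Psma8, 4 structural and 3 catalytic subunits of the inner beta ring (Psmb1 to Psmb4, and Psmb5 to Psmb7), 4 inducible or thymic beta subunits (Psmb8 to Psmb11), 6 ATPases and 3 other subunits of the base of the regulatory particle, 8 subunits of its lid, 3 chaperones of the regulatory particle, 4 activators (Psme1 to Psme4), the inhibitor-like protein PI31 (Psmf1) and 4 chaperones of the core particle (Psmg1 to Psmg4). The name pattern left out 7 further symbols beginning with Psm, among them pseudogenes and Psmc3ip.

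The study asked how loss of BAP1, the deubiquitinase that removes ubiquitin from histone H2A, changes the transcriptome of mouse oocytes and early embryos. Control females were Bap1 flox/flox without Cre. Knockout females were Gdf9-iCre, Bap1 flox/flox, in which the recombinase is expressed in oocytes, so the gene is deleted in the oocyte and not in the surrounding somatic cells. Total RNA libraries came from fully grown oocytes, MII oocytes, and embryos at the late 1-cell stage and at the start and end of the 2-cell stage (early and late 2-cell), with 2 control and 3 knockout libraries at each stage and 3 of each at early 2-cell. Poly(A) libraries came from the epiblast, visceral endoderm and extraembryonic ectoderm at embryonic day 6.5, with 2 control and 2 knockout libraries for the first 2 lineages and 1 control and 2 knockout libraries for the third. Early embryos were sired by B6 males and the day 6.5 embryos by PWK males, so knockout embryos carry a paternal wild-type allele and are maternal knockouts only. Embryos were cultured in KSOM medium. The total RNA and poly(A) libraries are kept apart throughout, since their values are on different scales.

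The proteasome is the protease complex that degrades proteins tagged with ubiquitin. Its core particle is a barrel of alpha and beta rings in which Psmb5, Psmb6 and Psmb7 carry the chymotrypsin-like, caspase-like and trypsin-like sites. The regulatory particle, made of a base with an ATPase ring and a lid, binds the tagged protein, removes the ubiquitin and feeds the chain into the barrel. In the oocyte and the zygote the proteasome takes part in clearing stored maternal proteins before the embryo transcribes its own genome, which in the mouse begins in earnest at the 2-cell stage.

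Values are FPKM, the deposited fragment counts scaled by transcript length and library size, so levels can be set side by side between genes of one library. The FPKM of a library summed to between 300668 and 430784 in total RNA and between 593705 and 704522 in poly(A) RNA, and read depth is not known. The 48 genes held 0.177% to 0.610% of all FPKM in total RNA libraries and 1.62% to 2.67% in poly(A) libraries, and 37 to 44 and 45 to 47 of them reached 1 FPKM in a library. Bap1 itself was at 16.3 to 29.9 FPKM in control and 3.76 to 11.7 FPKM in knockout total RNA libraries, without overlap at any stage, and at 14.0 to 22.6 FPKM in control and 18.3 to 33.8 FPKM in knockout poly(A) libraries. The 7 oocyte markers checked summed to 2970.0 to 3521 FPKM in fully grown oocytes. One small RNA gene, Gm23935, held 5.98% to 23.1% of the FPKM of a total RNA library. The typical spread between libraries of a group was 0.11 to 0.13 on the log2 scale in oocytes and 1-cell embryos, 0.26 and 0.21 at early and late 2-cell, and 0.41, 0.31 and 0.23 in epiblast, visceral endoderm and extraembryonic ectoderm. The labels do not say what separates replicates, so each p-value measures only the spread between these libraries, which may be technical. Because the libraries are bulk samples, fewer cells of a type and less RNA per cell cannot be told apart. Changes were tested with limma on log2(FPKM + 1) over all genes that passed the filter on low values, and a gene is called where its Benjamini-Hochberg adjusted p is under 0.05. Of the 48 genes, 45 passed the filter in total RNA (Psma8, Psmb8 and Psmb9 did not) and 47 in poly(A) RNA (Psmb11 did not). A log2 difference below is on the log2(FPKM + 1) scale and understates the change of genes near 0, and a fold is a ratio of mean FPKM.

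In control oocytes the proteasome genes were abundant and their sum fell in steps towards the 2-cell stage. The 14 subunits of the constitutive core particle summed to 551 and 601 FPKM in fully grown oocytes, 483 and 509.6 FPKM in MII oocytes, 443 and 452 FPKM at late 1-cell, 161, 174 and 192 FPKM at early 2-cell, and 181 and 197 FPKM at late 2-cell. The 17 subunits of the regulatory particle summed to 819 and 913, 804 and 828, and 709 and 724 FPKM in the first 3 stages, then to between 282 and 299 FPKM at early 2-cell and to 348 and 368 FPKM at late 2-cell. The main step lay between late 1-cell and early 2-cell, where the core sum was 2.55-fold lower (2.91-fold after rescaling every library to the same total) and the regulatory sum 2.47-fold lower (2.81-fold). Psmd4, a ubiquitin receptor in the base, had the highest level of the regulatory particle at every stage before fertilization, with 248 and 193 FPKM in fully grown oocytes. Psma8, Psmb8 and Psmb9 stayed at or under 0.401 FPKM in every total RNA library.

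**Figure D1:**
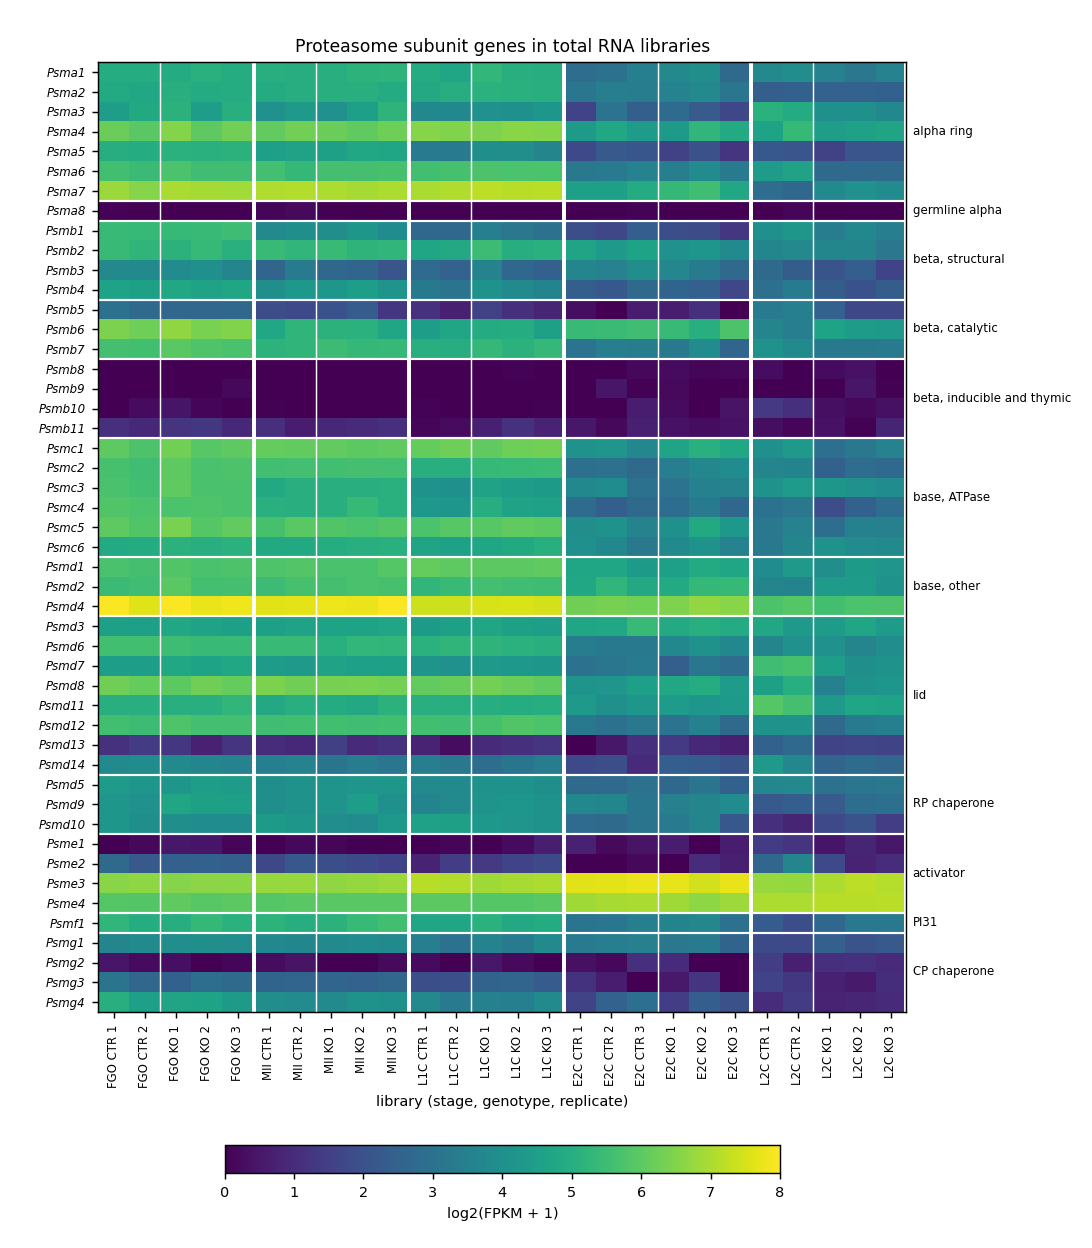
Heat map of log2(FPKM + 1) for the 48 proteasome genes (rows, grouped by role) in the 26 total RNA libraries (columns, by stage, genotype and replicate; wide white lines separate stages and narrow ones genotypes). Levels are high from fully grown oocyte (FGO) to late 1-cell (L1C) and lower at early and late 2-cell (E2C, L2C) for most rows, while Psme3 and Psme4 stay high throughout and Psma8, Psmb8 and Psmb9 stay near 0.

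During maturation from fully grown to MII oocytes 1 of the 45 tested genes rose and 6 fell in controls, against 1.3% and 4.1% of all tested genes (5.39% in either direction). Psmb1, a structural beta subunit, went from 42.2 and 40.3 FPKM to 12.6 and 14.9 FPKM, and Psmb6, the caspase-like subunit, from 84.4 and 73.9 FPKM to 26.7 and 37.0 FPKM. The groups were apart for both, with log2 differences of -1.52 (SE 0.14, adjusted p 3.97e-07) and -1.30 (SE 0.16, adjusted p 2.25e-05). Psmb5, the chymotrypsin-like subunit, was already low at 6.84 and 5.83 FPKM and fell to 2.72 and 2.39 FPKM (-1.04, SE 0.27, adjusted p 0.0264). The alpha subunit Psma7 rose slightly, from 109.9 and 93.1 FPKM to 132 and 133 FPKM (0.39, SE 0.093, adjusted p 0.0148). The other falls were in the ATPases Psmc3 and Psmc4 and the core chaperone Psmg4, between -0.87 and -0.69. Of the 7 calls, those of Psmb1 and Psmb6 held under every alternative and with any one library left out; without the first fully grown control or the first MII control 3 genes were called, and without stage weights 2.

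From MII to late 1-cell 1 gene rose and 13 fell in controls, against 9.6% and 15.8% of all genes. The falls again included Psmb1 (5.38 and 5.43 FPKM at late 1-cell, -1.20, SE 0.14, adjusted p 2.81e-06) and Psmb5 (1.21 and 0.62 FPKM, -0.91, SE 0.27, adjusted p 0.0184). The largest was in the alpha subunit Psma5, from 21.9 and 23.6 FPKM to 8.96 and 9.003 FPKM (-1.25, SE 0.13, adjusted p 2.89e-07), a gene with 50% of its 50-base words also present in other genes. Psmb4, a further structural beta subunit, fell from 14.9 and 18.1 FPKM to 8.36 and 7.51 FPKM (-0.96, SE 0.15, adjusted p 7.1e-05). Psme3, the nuclear activator PA28 gamma, was the 1 gene that rose, from 107 and 109 FPKM to 139.8 and 135 FPKM (0.35, SE 0.063, adjusted p 3.09e-04). With each library centred on its median, 6 genes were higher and 10 lower, where 3421 of the 15184 genes tested were higher and 1543 lower. The direction of the smaller changes thus depends on the scaling.

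At early 2-cell most of the complex was lower than at late 1-cell. In controls 31 genes fell and 5 rose, against 29.1% and 18.1% of all genes, and the median difference over the 45 genes was -1.07. All 7 alpha subunits, all 6 base ATPases, all 3 other base subunits and 6 of the 8 lid subunits fell. Psmd12, a lid subunit, had 46.3 and 45.7 FPKM at late 1-cell and 8.45, 6.85 and 8.30 FPKM at early 2-cell, a 5.85-fold lower mean (-2.41, SE 0.15, adjusted p 9.31e-11). Psma7 went from 127 and 132 FPKM to 22.4, 22.2 and 29.1 FPKM (-2.36, SE 0.13, adjusted p 1.27e-11), and Psma6 from 46.5 and 50.2 FPKM to 8.29, 8.78 and 10.8 FPKM (-2.27, SE 0.13, adjusted p 3.33e-11). The stages did not overlap for any of these 3 genes. The beta ring behaved unevenly: Psmb6 rose from 21.5 and 25.9 FPKM to 41.0, 42.8 and 46.2 FPKM (0.85, SE 0.23, adjusted p 0.00469), Psmb7 fell (-1.71, adjusted p 1.03e-07), and Psmb5 was listed at 0.215, 0 and 0.525 FPKM. The activators Psme4 and Psme3 both rose, Psme4 (PA200) from 62.8 and 62.7 FPKM to 116, 122 and 127 FPKM (0.95, SE 0.067, adjusted p 4.63e-10) and Psme3 to 198, 203 and 216 FPKM (0.58, SE 0.088, adjusted p 1.42e-05). Psmb3 also rose (1.06, SE 0.39, adjusted p 0.0298), a call that was lost after rescaling and without any 1 of 4 of the 5 libraries compared (all but the first late 1-cell control), and so did the lid subunit Psmd3 (0.52, adjusted p 0.00702). Rescaling every library to the same total moved the median of all genes in this step to -0.27, which was -0.08 as deposited.

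Between early and late 2-cell, when the embryonic genome is switched on, the control genes moved in both directions: 21 rose and 15 fell, against 29.2% and 22.5% of all genes (51.7% in either direction). Centring each library on its median moved the split to 13 higher and 16 lower, where 3561 of the 15184 genes tested were higher and 4879 lower. The balance between the directions thus depends on the scaling. Of the 8 lid subunits 7 rose, among them Psmd13 from 0, 0.420 and 1.11 FPKM to 4.61 and 5.63 FPKM. Psmd7 rose from 7.11, 7.84 and 9.05 FPKM to 45.5 and 49.5 FPKM (2.43, SE 0.16, adjusted p 1.04e-10), 5.94-fold. Psmd14, the deubiquitinase of the lid, rose from 2.42, 2.71 and 0.928 FPKM to 18.5 and 12.4 FPKM (2.48, SE 0.27, adjusted p 1.08e-07). Psmd11 reached 57.9 and 49.1 FPKM from 19.1, 15.0 and 17.3 FPKM (1.59, SE 0.17, adjusted p 1.11e-07). All late values of these lid genes lay above all early ones. The 3 base subunits that are not ATPases fell instead, Psmd2 most, from 27.0, 37.4 and 27.1 FPKM to 11.6 and 11.3 FPKM (-1.33, SE 0.18, adjusted p 1.9e-06).

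Within the core barrel, subunits of one ring moved apart at that step. In the alpha ring, Psma3 rose from 2.03, 7.34 and 4.31 FPKM to 33.4 and 29.6 FPKM (2.66, SE 0.47, adjusted p 6.95e-05) and Psma6 to 20.5 and 23.2 FPKM (1.16, SE 0.16, adjusted p 4e-06), while Psma7 fell a second time, to 6.33 and 5.46 FPKM (-1.89, SE 0.16, adjusted p 3.37e-09). Psma7 had the highest mean of the 7 alpha subunits in oocytes and at late 1-cell, and at late 2-cell it lay below Psma6 in both control libraries. Among the catalytic subunits, Psmb5 rose from the near-0 values above to 8.604 and 9.93 FPKM (3.06, SE 0.46, adjusted p 1.06e-05), whereas Psmb6 fell 4.07-fold to 11.6 and 9.73 FPKM (-1.93, SE 0.28, adjusted p 6.31e-06). Psmb5 shares 54.1% of its 50-base words with other genes, so its level is uncertain where reads were split among them. The activator subunit Psme2 was listed at 0, 0 and 0.129 FPKM at early 2-cell and at 5.19 and 11.4 FPKM at late 2-cell (3.07, SE 0.41, adjusted p 2.11e-06). Psmd10, the regulatory particle chaperone gankyrin, fell from 5.91, 5.74 and 7.43 FPKM to 1.09 and 0.767 FPKM (-1.93, SE 0.29, adjusted p 7.92e-06).

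The promoters of the 2 pairs that moved apart within one ring are printed here for comparison, as the 250 bases before the start site of RefSeq genes on GRCm38.p6, 5′ to 3′ on the gene's strand. Of the 48 genes, 40 have an entry in the promoter table used. Capitals mark 2 motifs searched on both strands: CCAAT (read as ATTGG on the other strand) and TGACNNNGC, the core of the antioxidant response element bound by NFE2L1 and NFE2L2, the factors known to drive proteasome genes. Psma6 lies at chr12:55383972-55384221 on the plus strand, Psma7 at chr2:180042465-180042714 on the minus strand, Psmb5 at chr14:54617996-54618245 on the minus strand and Psmb6 at chr11:70525107-70525356 on the plus strand.
Psma6: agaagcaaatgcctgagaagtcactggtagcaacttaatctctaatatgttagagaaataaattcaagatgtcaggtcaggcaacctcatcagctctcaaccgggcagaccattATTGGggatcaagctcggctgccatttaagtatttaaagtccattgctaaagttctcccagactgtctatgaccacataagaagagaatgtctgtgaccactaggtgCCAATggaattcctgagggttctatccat
Psma7: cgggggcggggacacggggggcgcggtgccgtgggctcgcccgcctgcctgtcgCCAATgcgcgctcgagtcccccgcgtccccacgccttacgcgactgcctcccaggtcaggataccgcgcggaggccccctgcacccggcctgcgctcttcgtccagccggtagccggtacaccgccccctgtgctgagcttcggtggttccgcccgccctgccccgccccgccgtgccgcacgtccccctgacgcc
Psmb5: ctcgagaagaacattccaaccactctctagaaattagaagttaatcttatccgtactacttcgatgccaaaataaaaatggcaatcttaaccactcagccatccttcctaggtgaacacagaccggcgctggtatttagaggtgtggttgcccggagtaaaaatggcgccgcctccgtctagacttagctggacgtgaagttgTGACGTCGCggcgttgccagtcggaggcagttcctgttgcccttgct
Psmb6: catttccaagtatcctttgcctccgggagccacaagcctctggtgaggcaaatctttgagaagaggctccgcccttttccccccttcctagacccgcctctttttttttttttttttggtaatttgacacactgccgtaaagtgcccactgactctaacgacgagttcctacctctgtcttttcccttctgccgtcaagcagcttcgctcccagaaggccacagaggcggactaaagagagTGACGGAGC
Psma6 has 2 CCAAT matches and a GC content of 42.8%, and Psma7 has 1 and a GC content of 77.2%. Psmb5 and Psmb6 each have 1 TGACNNNGC match, beginning 47 and 9 bases before the start. Over promoters of 300 bases (250 before to 50 after the start), TGACNNNGC was found in 6 of the 40 members (15%) and in 12.47% of 27025 genes, and CCAAT in 14 members (35%) and in 37.92% of genes. A match is a run of letters in this window and not a measured binding site. The part of either motif in the changes was not tested.

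**Figure D2:**
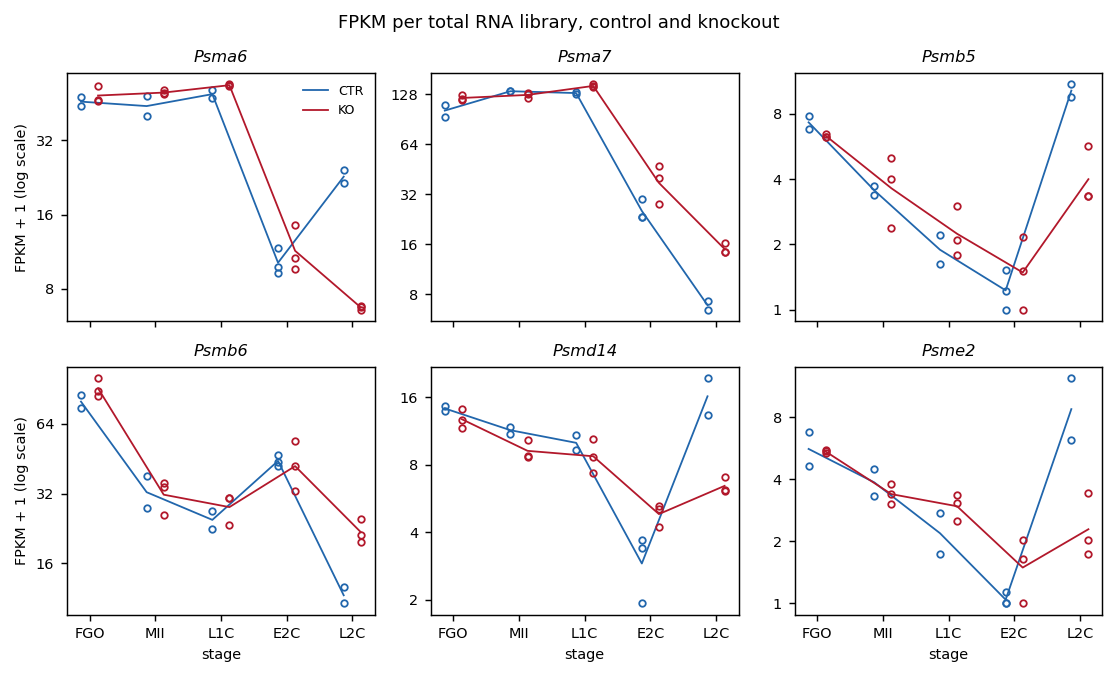
FPKM + 1 on a log axis for 6 genes in each total RNA library (circles) at the 5 stages, control (CTR) in blue and knockout (KO) in red; lines join the group means of log2(FPKM + 1). At late 2-cell Psma6 is at 20.5 and 23.2 FPKM in controls and 5.59 to 5.84 FPKM in knockouts, and Psma7 is at 6.33 and 5.46 FPKM in controls and 13.3 to 15.4 FPKM in knockouts.

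Few of these genes were called between knockout and control oocytes. In fully grown oocytes the core sum was 1.11-fold higher in knockouts without overlap, and the regulatory sum 1.07-fold higher with overlap. In MII oocytes the core sum was 1.03-fold higher with overlap, and the regulatory sum 1.04-fold higher without. In fully grown oocytes 1 gene was higher and none lower in the knockout, against 3.91% and 9.97% of all genes. That gene was Psmd9, a chaperone of the regulatory particle that shares 24.9% of its 50-base words with other genes. It overlaps Gm26745 on the opposite strand over 25.5% of its exonic length. Psmd9 had 17.8 and 15.5 FPKM in controls and 25.4, 22.3 and 22.0 FPKM in knockouts (0.46, SE 0.13, adjusted p 0.0266). Its groups did not overlap, but the call was lost without either control library and without the second or the third knockout library (adjusted p up to 0.272 over all alternatives). In MII oocytes none of the 45 genes was called by limma, where 6.57% of all genes were higher and 10.2% lower, and 6 of the 45 had an unadjusted p under 0.05; the lowest adjusted p was 0.0764, and without the first knockout library 2 genes were higher. Centring on the median called 6 genes, all higher, at each of these stages. Of the 15184 genes tested, it called 1153 higher and 1032 lower in fully grown oocytes. In MII oocytes it called 2187 higher and 1114 lower.

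At late 1-cell 10 genes were higher and none lower in maternal knockout embryos, against 7.6% of all genes higher and 10% lower. The core and regulatory sums were 1.14-fold and 1.09-fold higher in knockouts, both without overlap. Psmb4 had 8.36 and 7.51 FPKM in controls and 16.0, 13.3 and 11.3 FPKM in knockouts (0.69, SE 0.15, adjusted p 0.00209), and Psma5 8.96 and 9.003 against 14.7, 14.6 and 11.6 FPKM (0.54, SE 0.12, adjusted p 0.0031). Psmb1 had 5.38 and 5.43 against 9.96, 7.98 and 7.17 FPKM (0.54, SE 0.14, adjusted p 0.00953). The knockout libraries were above both controls for each of the 10 genes. Counted whether called or not, 29 of the 45 members had groups without overlap, and the share over all genes is not given here. These 3 genes had fallen between MII and late 1-cell in controls, a comparison that shares the late 1-cell controls with this one; in knockouts they fell too, with differences of -0.43, -0.82 and -0.80. The thymic subunit Psmb11 was at 0.0736 and 0.176 FPKM in controls and 0.617, 1.21 and 0.730 FPKM in knockouts (0.71, SE 0.16, adjusted p 0.00431), a low level throughout. The remaining calls were Psmg3 (0.56), the ATPases Psmc4, Psmc3 and Psmc2 (0.38 to 0.50), Psmd9 (0.47) and Psmb2 (0.41). Only the call of Psmb4 held under every alternative and every library left out; without the second late 1-cell control 4 genes were called and without the first 5, and without the first knockout library 6, and without stage weights 2. A separate list, the cytoplasmic ribosomal protein genes, had 40 of 88 higher and none lower in the same comparison.

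At early 2-cell 4 genes were higher and none lower in knockouts, against 6.2% and 7.28% of all genes. The core sum was 1.06-fold higher in knockouts with overlap, and the regulatory sum 1.21-fold higher without. Psmc1 had 16.3, 17.0 and 11.97 FPKM in controls and 24.6, 32.7 and 26.8 FPKM in knockouts (0.86, SE 0.20, adjusted p 0.0067), and Psmc2 6.77, 7.08 and 5.85 against 9.67, 12.03 and 13.7 FPKM (0.75, SE 0.15, adjusted p 0.00157). Both are base ATPases, neither overlapped between groups, and both calls held under every alternative and every library left out. The other 2 calls were the lid subunit Psmd6 (0.57, adjusted p 0.0193) and Psma7 (0.56, adjusted p 0.0192, with overlapping groups). Without the second control library the count was 2. Without stage weights it was 11, with 8 higher and 3 lower, where 2146 of the 15184 genes tested were higher and 2261 lower.

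The largest number of differences was at late 2-cell. In maternal knockout embryos 18 of the 45 genes were lower and 6 higher, against 17.2% lower and 17% higher among all genes. The groups did not overlap for any of the 24, nor for 32 of the 45 members counted whether called or not. The share without overlap over all genes is not given here. The median difference was -0.43 over the 45 genes and 0.03 over all genes. The core particle summed to 181 and 197 FPKM in controls and to 128 to 138 FPKM in knockouts, 1.40-fold lower, and the regulatory particle to 348 and 368 against 235 to 259.5 FPKM, 1.43-fold lower. After rescaling to the same total the sums were 1.27-fold and 1.30-fold lower and 9 genes were higher and 13 lower. Under that rescaling 3425 of the 15184 genes tested were higher and 1903 lower. Gm23935 held 20.2% to 23.1% of the FPKM of control and 15.3% to 17.3% of that of knockout libraries at this stage, and its part in the result was not tested beyond that rescaling.

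**Figure D3:**
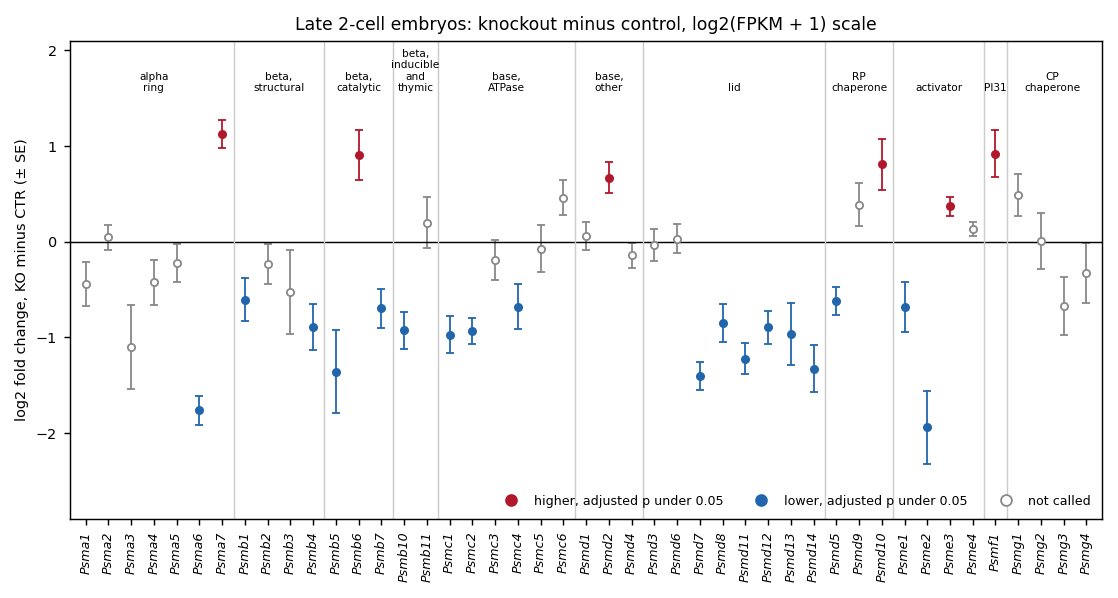
Knockout minus control at late 2-cell on the log2(FPKM + 1) scale for the 45 tested genes, grouped by role, with standard errors; filled red and blue points have an adjusted p under 0.05 (limma). The lid shows 6 lower and none higher, and the alpha and catalytic groups hold points on both sides of 0, Psma6 at -1.76 and Psma7 at 1.12, Psmb5 at -1.36 and Psmb6 at 0.91.

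In the alpha ring 1 gene was lower, 1 higher and 5 not called. Psma6 had 20.5 and 23.2 FPKM in controls and 5.78, 5.59 and 5.84 FPKM in knockouts, a 3.81-fold lower mean (-1.76, SE 0.15, adjusted p 3.22e-08). Psma7 had 6.33 and 5.46 FPKM in controls and 13.3, 15.4 and 13.4 FPKM in knockouts, 2.38-fold higher (1.12, SE 0.15, adjusted p 6.78e-06). The order of these 2 genes was thus Psma6 above Psma7 in both controls and below it in all 3 knockouts. In the beta ring the structural subunits Psmb4 and Psmb1 were lower (-0.89 and -0.61, adjusted p 0.00616 and 0.0428), and no structural subunit was higher. Among the catalytic subunits Psmb5 had 8.604 and 9.93 against 4.71, 2.33 and 2.36 FPKM (-1.36, SE 0.43, adjusted p 0.0185), and Psmb7 15.9 and 13.002 against 8.50, 8.43 and 8.604 FPKM (-0.69, SE 0.20, adjusted p 0.0109). Psmb6 went the other way, with 11.6 and 9.73 against 23.8, 20.2 and 18.7 FPKM (0.91, SE 0.26, adjusted p 0.01). The call of Psmb5 was lost without either control or the second or the third knockout library (adjusted p 0.068 to 0.112) and after rescaling; that of Psmb6 without the second control (0.0964) and that of Psmb7 without the first (0.13).

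The lid was the group with the most genes lower, 6 of 8. Psmd7 had 45.5 and 49.5 FPKM in controls and 21.4, 15.0 and 16.2 FPKM in knockouts, 2.71-fold lower (-1.40, SE 0.15, adjusted p 5.08e-07). Psmd14 had 18.5 and 12.4 against 5.11, 6.08 and 5.17 FPKM, 2.83-fold lower (-1.33, SE 0.25, adjusted p 2.94e-04). Psmd11 had 57.9 and 49.1 against 18.9, 24.98 and 23.4 FPKM, 2.38-fold lower (-1.22, SE 0.16, adjusted p 6.2e-06). These 3 were among the lid genes that rose most between early and late 2-cell in controls, a comparison that shares the late 2-cell controls. Psmd13, Psmd12 and Psmd8 were lower too (-0.96, -0.89 and -0.85), and Psmd3 and Psmd6 were not called. In the base the ATPases Psmc1, Psmc2 and Psmc4 were lower (-0.97, -0.93 and -0.68, adjusted p 5.01e-04, 2.78e-05 and 0.0287), which for Psmc1 and Psmc2 is the opposite sign to the difference at early 2-cell. Psmd2, the base subunit that docks shuttle proteins carrying ubiquitin, was higher, at 20.1, 20.1 and 16.3 FPKM against 11.6 and 11.3 FPKM (0.67, SE 0.16, adjusted p 0.00316). The regulatory particle chaperones divided, with Psmd5 lower (-0.62, adjusted p 0.00228) and Psmd10 higher at 2.38, 3.11 and 1.75 against 1.09 and 0.767 FPKM (0.81, SE 0.27, adjusted p 0.0225), and none of the 4 core chaperones was called.

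Outside the constitutive particle, the 2 subunits of the PA28 cap that pairs with the inducible core were lower. Psme2 had 5.19 and 11.4 FPKM in controls and 2.42, 0.730 and 1.03 FPKM in knockouts (-1.94, SE 0.38, adjusted p 5.02e-04), with 28.3% of its 50-base words shared with its copies Psme2b and Gm7928. Psme1 was near 1 FPKM, 1.61 and 1.29 against 0.379, 0.785 and 0.439 FPKM (-0.68, SE 0.26, adjusted p 0.0451). Psmb10, the inducible counterpart of Psmb7, had 1.49 and 1.16 against 0.244, 0.132 and 0.289 FPKM (-0.93, SE 0.19, adjusted p 7.97e-04), and was at or under 0.523 FPKM in all libraries of earlier stages. Psmb8 and Psmb9 were at or under 0.391 FPKM in every late 2-cell library. Psme3 was higher in knockouts, 129.5, 147 and 137 against 107 and 105 FPKM (0.37, SE 0.099, adjusted p 0.00601), as was Psmf1, 5.50, 8.32 and 8.37 against 4.06 and 2.78 FPKM (0.92, SE 0.25, adjusted p 0.00628), and Psme4 was not called at 129.8 and 129 against 141, 140.4 and 144 FPKM.

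Of the 24 calls at late 2-cell, 10 held under every processing alternative and every library left out: Psma6, Psma7, Psmc1, Psmc2, Psmd5, Psmd7, Psmd11, Psmd12, Psmd14 and Psme2. Without a filter on low values 12 genes were called, 1 higher and 11 lower, where 1759 of the 36036 genes tested were higher and 2082 lower. Without the second control library 13 were called. Psmb4 (adjusted p 0.0954), Psmc4 (0.173), Psmd8 (0.0725), Psmd10 (0.159), Psmd13 (0.159), Psmb1 (0.249), Psme3 (0.0504) and Psmf1 (0.108) lost their call there beside Psmb5 and Psmb6. Markers of stage also moved with the genotype: the summed level of 7 of 7 oocyte genes found was 478 to 503 FPKM in control and 776 to 904 FPKM in knockout late 2-cell libraries, and that of the 4 of 4 genes of the 2-cell list 64.6 to 75.8 against 154 to 209 FPKM. At early 2-cell the oocyte sums overlapped (940.5 to 1242 against 872 to 1125 FPKM) and the 2-cell sums were 144 to 191 against 43.5 to 109 FPKM. The 6 of 6 granulosa markers summed to 9.28 to 10.6 FPKM in control and 2.36 to 2.93 FPKM in knockout late 2-cell libraries, mostly Amhr2, with Inha at 0, and in fully grown oocytes to 6.54 to 7.62 against 2.18 to 2.60 FPKM. The part of these markers in the results was not tested.

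The change from early to late 2-cell was then compared between genotypes, which share no library. In knockouts 7 genes rose and 20 fell, against 27.4% and 18.1% of all genes. Median centring gave 4 and 22, where 2937 of the 15184 genes tested rose and 4812 fell. As deposited, controls had 21 and 15 of the members. Of the genes that fell, 14 of the 15 in controls fell in knockouts (93.33% of the control list and 70% of the knockout list). Of the 21 that rose in controls, 5 rose in knockouts (23.81% of the control list and 71.43% of the knockout list), 13 were not called, and Psma6, Psmc2 and Psmd8 fell. Over those 21 genes the median difference was 0.93 in controls, where it is set by their choice, and 0.20 in knockouts. The overlap of the control and knockout lists over all genes is not given here. Whether the members differ from other genes in this was not tested. Psmb1, Psma3, Psmb5, Psmd7 and Psmc3 rose in both genotypes, by 1.82, 1.64, 1.43, 1.39 and 0.67 in knockouts and by 2.11, 2.66, 3.06, 2.43 and 0.72 in controls.

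The difference between the genotypes' changes was tested by an interaction term. At this step it was called for 12 genes, 1 higher and 11 lower, against 9.55% and 9.37% of all genes. Psma6 rose by 1.16 in controls and fell by 0.76 in knockouts, a difference of -1.92 (SE 0.22, adjusted p 4.22e-06). Psmd14 rose by 2.48 in controls and had a difference of -2.06 in its change (SE 0.36, adjusted p 3.7e-04), and Psme2 one of -2.46 (SE 0.56, adjusted p 0.00333). The ATPases Psmc1 and Psmc2 had differences of -1.83 and -1.68, the lid subunits Psmd13, Psmd11, Psmd8, Psmd7 and Psmd12 between -1.42 and -0.87, and Psmb10 -0.94, while Psme3 had 0.43 (SE 0.14, adjusted p 0.0433). Of the 12, 8 held under every alternative and every library left out; Psmb10, Psmd12, Psmd13 and Psme3 did not. Psmb10 lost its call without the first or second early 2-cell control or the third early 2-cell knockout, and Psmd12 without the second early 2-cell control or knockout or either late 2-cell control. Psmd13 kept it only without the third early 2-cell control or knockout, and Psme3 only without the first or the third early 2-cell knockout or the first late 2-cell knockout. Without stage weights 22 genes were called (5 higher and 17 lower), where 2361 of the 15184 genes tested were higher and 2261 lower. The count with 1 library left out ran from 8 to 17.

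**Figure D4:**
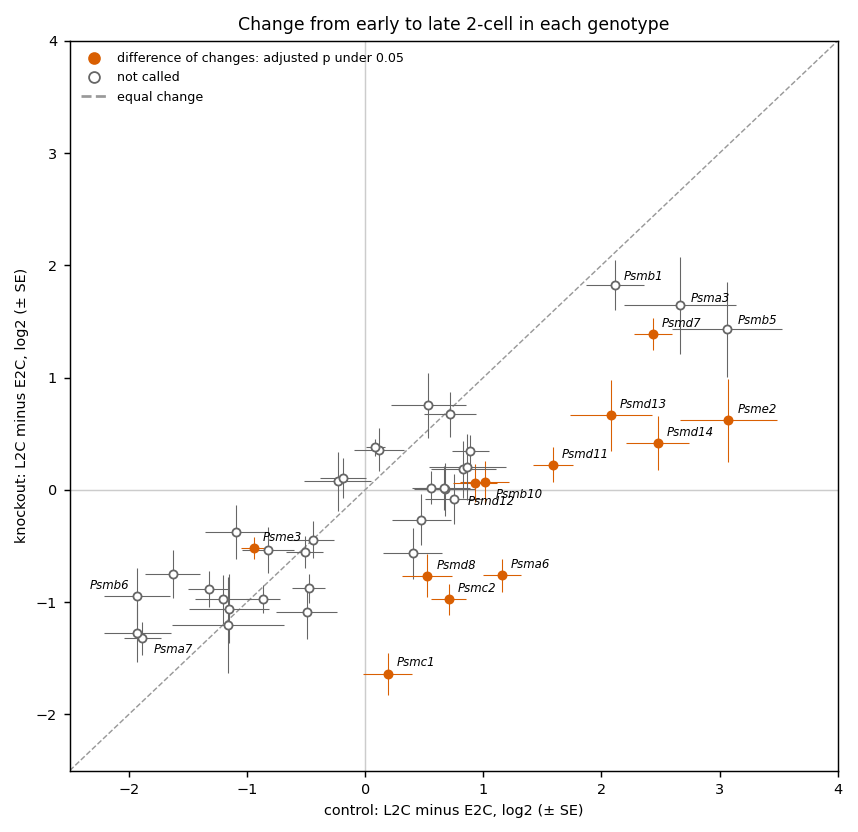
Change from early to late 2-cell (log2 scale, with standard errors) of the 45 tested genes in controls (horizontal) and knockouts (vertical); filled orange points have an adjusted p under 0.05 for the difference of the changes (limma interaction term), and the dashed line marks equal change. Psma6 lies at 1.16 and -0.76, and 11 of the 12 filled points lie below the line.

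At the earlier steps fewer differences were found. Between late 1-cell and early 2-cell 34 genes fell and 4 rose in knockouts (26.5% and 15.2% of all genes, 41.7% in either direction), and all 31 that fell in controls fell there too (100% of the control list, 91.18% of the knockout list). The interaction was called for 2 genes, against 1.28% of all genes higher and 2.07% lower (3.35% in all): Psma5 (-1.004, SE 0.24, adjusted p 0.0248) and Psmb2 (-0.93, SE 0.25, adjusted p 0.0481), both with the larger fall in knockouts. Both calls were lost after rescaling, with the compared stages fitted alone, and without either late 1-cell control, the second or the third early 2-cell control, or the first or the third early 2-cell knockout. From fully grown to MII oocytes 13 genes fell and 1 rose in knockouts (7.35% and 6.49% of all genes), among them all 6 that fell in controls (9 were called without the third fully grown library), and from MII to late 1-cell 9 fell and 3 rose (11% and 5.36% of all genes; 10 fell and none rose after rescaling, 4 fell and 5 rose with median centring, and 5 or 6 were called without the second MII or the second or the third late 1-cell library), with 7 of the 13 control falls (53.85% and 77.78% of the lists). Of the 15184 genes tested from MII to late 1-cell in knockouts, 1706 fell and 577 rose after rescaling. With median centring 1141 fell and 1908 rose. For these steps too, the overlap of the control and knockout lists over all genes is not given here. The limma interaction was called for 0 genes at both steps, with 1 and 8 of the 45 at an unadjusted p under 0.05 and 0% and 0.198% of all genes called (0.0395% lower at the later step).

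Of 32 further genes of the pathway (assembly factors, ubiquitin genes, shuttles and transcription factors), 29 were found and tested in total RNA. At late 2-cell 7 were higher and 6 lower in knockouts, against 17% and 17.2% of all genes, with a median of -0.13. Adrm1, a ubiquitin receptor of the regulatory particle, was lower, at 46.9 and 51.2 FPKM in controls and 17.8 to 20.5 FPKM in knockouts (-1.32, adjusted p 6.18e-06), after rising between early and late 2-cell in controls (1.94). Vcp, the segregase that unfolds tagged proteins, was also lower (-0.64, adjusted p 0.00171), as were the ubiquitin fusion gene Rps27a (-0.71), the core assembly factor Pomp (-0.49, adjusted p 0.0485) and Ddi2 (-0.34). Akirin2, which brings proteasomes into the nucleus, was higher, at 114 and 122 against 200.01 to 220.45 FPKM (0.85, adjusted p 1.41e-06), as were, among others, Ecpas (0.80), Ngly1 (0.69), Fbxo7 (0.67), the polyubiquitin gene Ubb (0.64) and Rad23b (0.48). Of the 13 calls 7 held under every alternative and every library left out (Adrm1, Akirin2, Ecpas, Ngly1, Rad23b, Rps27a and Vcp), and those of Pomp and Ddi2 were each lost without either late 2-cell control and after rescaling.

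The same list had 1 higher and 2 lower in knockout fully grown oocytes, 2 and 2 in MII oocytes, 5 and 2 at late 1-cell and 3 and 2 at early 2-cell. Of all genes, 3.91% and 9.97%, 6.57% and 10.2%, 7.6% and 10%, and 6.2% and 7.28% were higher and lower at these stages. Nfe2l2, a transcription factor of the antioxidant response, was lower at the first 3 of these stages (-0.71, -0.47 and -0.66; adjusted p 0.0035, 0.0247 and 0.00592), at 2.06 to 3.09 FPKM in knockout and 3.48 to 5.60 FPKM in control libraries. Each of these calls was lost without stage weights, and they were lost without the second fully grown control, without either MII control or the first or second MII knockout, and without the first late 1-cell control. The related factor Nfe2l3 was near 1 FPKM and higher in fully grown and MII oocytes (0.49 and 0.52, adjusted p 0.0426 and 0.0138), calls that were lost without either fully grown control or the third fully grown knockout, and without the first MII control or knockout. Nfe2l1, the factor best known for driving proteasome genes, was higher at early 2-cell (0.40, adjusted p 0.0445), a call that was lost under 10 of 15 alternatives, including without any 1 library but the third knockout. At late 2-cell, where it was not called, it had 55.1 and 62.3 FPKM in controls and 45.8 to 52.5 FPKM in knockouts. As other large complexes, the chaperonin had 5 of 8 genes lower and none higher at late 2-cell (median -0.61) and the cytoplasmic ribosomal proteins 61 of 88 lower and none higher (median -0.85), where the 45 proteasome genes had 18 lower and 6 higher (median -0.43). Of all genes 17.2% were lower and 17% higher.

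In the lineages at day 6.5 the constitutive proteasome was abundant in all libraries. The core particle summed to 9866 and 10072 FPKM in control and 8418 and 7983 FPKM in knockout epiblast, 8666 and 7630.4 against 7354 and 8040.0 FPKM in visceral endoderm, and 9143 against 8969 and 8840.0 FPKM in extraembryonic ectoderm. The regulatory particle summed to between 2755 and 5543 FPKM. The ratio of core to regulatory sums ranged from 1.58 to 2.77 and moved with the share of FPKM held by genes under 1500 bases of exon, which was 22.5% to 37.8%: in epiblast the ratio was 2.52 and 2.63 in the first and 1.82 and 1.58 in the second replicates, with shares of 30.8% and 33.1% and of 24.3% and 22.5%. The part of this share in the results was not tested beyond the covariate given under processing.

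None of the 47 tested genes was called by limma between knockout and control in epiblast, visceral endoderm or extraembryonic ectoderm, and none had an unadjusted p under 0.05; of all genes 0%, 0.00719% and 0% were called, and 469, 248 and 251 of the 13914 tested had an unadjusted p under 0.05. The median difference of the members was -0.28, -0.03 and 0.10. In extraembryonic ectoderm the single control library is assumed to vary like the other groups. In epiblast both knockout core sums lay below both control sums, 1.22-fold lower in the mean (1.17-fold after rescaling).

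Between lineages, calls were found among the inducible subunits and the activators and among constitutive subunits. Psmb8, the inducible counterpart of Psmb5, had 1.34 and 5.98 FPKM in control and 6.93 and 2.36 FPKM in knockout epiblast, was at or under 0.124 FPKM in visceral endoderm, and had 1.552, 0.0584 and 0.102 FPKM in the control and the 2 knockout libraries of extraembryonic ectoderm. Psmb9, the counterpart of Psmb6, had 1.97, 1.70, 2.75 and 1.07 FPKM in epiblast, was listed at 0 in all 4 libraries of visceral endoderm, and had 3.94, 2.35 and 1.22 FPKM in extraembryonic ectoderm. Psmb10, with 31.5 to 110.1 FPKM over all 11 libraries, was not called in any contrast of lineages. All 3 remained far below Psmb5, Psmb6 and Psmb7, whose lowest values were 419.8, 1182 and 261 FPKM.

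Epiblast exceeded visceral endoderm in 10 genes and was lower in none, against 21.6% and 16.8% of all genes, with a median of 0.29 over the members and 0.20 over all genes. The calls included Psmb8 (2.13, SE 0.37, adjusted p 0.00158), Psmb9 (1.49, SE 0.24, adjusted p 0.00111) and Psme2, with 400.1, 288, 355 and 229 FPKM in epiblast and 144, 129, 110.2 and 144 FPKM in visceral endoderm (1.24, SE 0.22, adjusted p 0.00194). Its partner Psme1 was also higher (0.60, adjusted p 0.0393), as were 5 constitutive subunits (Psmd4, Psmd2, Psma7, Psmd13 and Psmd3) and the core chaperone Psmg2, by 0.67 to 0.78. Extraembryonic ectoderm was lower than epiblast in 3 genes and higher in none (10.4% and 9.13% of all genes): Psmb8 (-1.46, SE 0.41, adjusted p 0.0345, with overlapping groups), Psme2 (168, 99.6 and 89.99 FPKM; -1.29, SE 0.25, adjusted p 0.00558) and Psme1 (-0.94, SE 0.22, adjusted p 0.0151). Against visceral endoderm it was higher in 3 genes and lower in none (11.3% in each direction): Psmb9 (1.88, SE 0.27, adjusted p 8.6e-04), Psmg2 (0.90, SE 0.20, adjusted p 0.00943) and Psmd3 (0.75, SE 0.21, adjusted p 0.0273). The calls of Psmb8, Psmb9, Psmd4 and Psme2 between epiblast and visceral endoderm held under every alternative and every library left out, and the count fell to 5 without the second visceral endoderm knockout library. Between extraembryonic ectoderm and epiblast 1 gene was called without either extraembryonic knockout library, and only the call of Psme2 held throughout; against visceral endoderm only that of Psmb9 did. With the share of short genes as a covariate, an alternative added after seeing the data, epiblast had 16 genes higher and 4 lower than visceral endoderm. With that covariate 4392 of the 13914 genes tested were higher and 2919 lower.

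**Figure D5:**
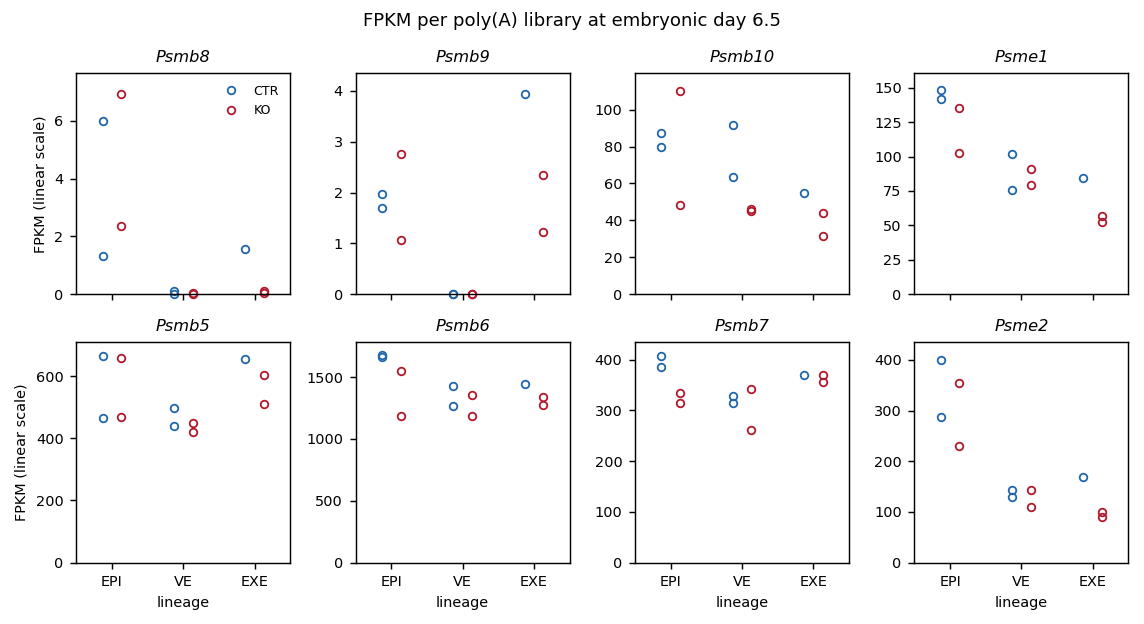
FPKM on a linear axis in each poly(A) library (circles) of epiblast (EPI), visceral endoderm (VE) and extraembryonic ectoderm (EXE), control in blue and knockout in red, for the inducible subunits Psmb8, Psmb9 and Psmb10 with their constitutive counterparts Psmb5, Psmb6 and Psmb7 and for the activator subunits Psme1 and Psme2; each panel has its own scale. Psmb9 is at 0 in all 4 VE libraries, and Psme2 is between 229 and 400.1 FPKM in EPI and between 89.99 and 168 FPKM elsewhere.

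Each marker list summed highest in its own lineage. Visceral endoderm markers summed to 6902 to 8103 FPKM in visceral endoderm and at most 14.0 FPKM elsewhere. Extraembryonic ectoderm markers summed to 341 to 457 FPKM in that lineage and at most 28.5 FPKM elsewhere. Epiblast markers were less restricted, at 889 to 1355 FPKM in epiblast, 395 to 499.5 FPKM in extraembryonic ectoderm and 47.7 to 159 FPKM in visceral endoderm. This list thus sets epiblast and extraembryonic ectoderm apart less sharply. Immune markers, which would show blood cells rich in the inducible subunits, summed to 3.87 to 5.01 FPKM in epiblast, 3.26 to 7.34 FPKM in visceral endoderm and 9.94 to 18.2 FPKM in extraembryonic ectoderm. Ptprc was at most 0.0439 FPKM, so nearly all of each sum came from the other listed genes, Cd74, H2-Ab1 and Cd52. Of the antigen processing genes, which act on the peptides the inducible proteasome makes, 7 of 9 were tested: Irf1 and Tapbp were higher in epiblast than in visceral endoderm (1.36 and 1.17), while H2-D1 and B2m were higher (1.90 and 1.41) and Irf1 lower (-2.40) in extraembryonic ectoderm than in epiblast. H2-K1 was also higher there (0.94, adjusted p 0.0388), a call lost under 8 of 15 alternatives, among them without either epiblast control, the second epiblast knockout or either extraembryonic knockout library. Psmb8, Psme1 and Psme2 were lower in extraembryonic ectoderm than in epiblast, as was Irf1, where H2-D1 and B2m were higher. Psmb9 and Psmb10 were not called between these lineages. Of the 3 members called, only the call of Psme2 held throughout. The part of these markers in the results was not tested.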

How the data were processed

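Total RNA was profiled in 26 libraries of oocytes and early embryos (SMART-Seq Stranded, per the labels' protocols) and poly(A) RNA in 11 libraries of day 6.5 lineages (SMART-Seq mRNA and Nextera XT). The submitters' processing notes name Trim Galore 0.6.6, STAR 2.7.9, StringTie 2.1.7 and mm10. The annotation and the use of strand in counting are not given in the sources used here. The authors deposited FPKM per gene and library, per the file headers, and a single other deposited value, -1e-06 for Gm24888 in the first epiblast control, was set to 0. FPKM keep no read depth, so no counting error is given.

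Each table was analysed apart with limma 3.58.1 (R 4.3.3) on log2(FPKM + 1), over the genes that reached 1 FPKM in 2 or more libraries (15184 in total RNA, 13914 in poly(A) RNA). All groups of a table were fitted together by group means, with a moderated variance trend and, in total RNA, a quality weight per stage (1.59, 1.98, 1.54, 0.42 and 0.58 from fully grown oocyte to late 2-cell). Tests are two-sided, adjusted by Benjamini-Hochberg over all genes tested, with a threshold of 0.05. Lineages were compared over both genotypes. Sums and tables were made with Python 3.11.15, pandas 2.3.3 and numpy 2.4.6. The fits were also run on simulated libraries in which all genes of a stage or lineage had the same spread. That setting is simpler than the data, and its outcome is not given here or used as support.

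The genes named are those called, those outside the constitutive particle, and Psmb5 to Psmb7. The members and the lists were chosen with earlier results of these data known. Values of some genes of the further lists are not reported here. Alternatives were the pseudocount, the filter, rescaling to equal totals (TPM), median centring, no variance trend, no stage weights, the compared groups alone, a replicate block and each library left out. The changes between stages within knockouts, the fit without extraembryonic ectoderm and the short-gene covariate were chosen after seeing the data. Scaling moved the median difference of all genes by over 0.1 in 9 contrasts: knockout against control at late 2-cell from 0.034 to 0.156 (TPM), in MII oocytes from 0 to 0.105 (centring) and in epiblast from 0.062 to -0.073 (centring); early 2-cell against late 1-cell from -0.078 to -0.265 (TPM) and 0.068 (centring) in controls and from -0.082 to -0.218 and 0.111 in knockouts; late against early 2-cell from 0.022 to -0.098 and -0.229 in controls and from 0.061 to -0.244 (centring) in knockouts; and late 1-cell against MII from -0.011 to 0.162 (centring) in controls and from -0.010 to 0.095 (centring) in knockouts.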

Additional observations from a re-analysis of the deposited data

Results flagged for a closer look

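The difference between knockout and control itself differed between stages for 14 genes, by the limma interaction term. Between early and late 2-cell the effect moved downwards in 11 of them, where it did so in 9.37% of all genes tested. Among the lid subunits the difference between the effects was -2.06 for Psmd14, -1.42 for Psmd13, -1.37 for Psmd11, -1.29 for Psmd8, -1.05 for Psmd7 and -0.87 for Psmd12. It was -1.83 and -1.68 for the base ATPases Psmc1 and Psmc2, which were higher in knockouts at early 2-cell and lower at late 2-cell. It was -1.92 for the alpha subunit Psma6, -2.46 for the activator subunit Psme2 and -0.94 for the inducible subunit Psmb10. Psme3, the nuclear activator, moved upwards by 0.43, where 9.55% of all genes did. The calls of Psmb10, Psmd12, Psmd13 and Psme3 did not hold under every alternative and every library left out. Between late 1-cell and early 2-cell the difference between the effects was -1.004 for Psma5 and -0.93 for Psmb2. These 2 genes were higher in knockouts at late 1-cell. Of all genes 1.28% were called higher and 2.07% lower at that step. Neither of the 2 calls held under every alternative and every library left out. No group held the 4 or more libraries that a check for single outlying libraries needs.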

How the results depend on the processing

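FPKM without read depth, 1 to 3 libraries a group and the lone extraembryonic control limit these results: values near 1 FPKM, such as those of Psme1, Psmb10 and Psmd13, rest on an unknown number of reads. Over the processing alternatives, the counts of genes called stayed within 1.5 times the reported count in 179 cases and moved further in 31, given here with knockout against control as the effect. Without stage weights the effect was called for 0 genes in fully grown oocytes, 2 at late 1-cell and 11 at early 2-cell, the change from fully grown to MII for 2 in controls and 4 in knockouts, that from MII to late 1-cell for 8 and 3, and the difference of effects for 4 at early 2-cell against late 1-cell and 22 at late against early 2-cell. Calls over all genes moved too. For the effects they went from 2107 to 903, from 2675 to 1176 and from 2046 to 4407. For the stage changes they went from 819 to 210, 2102 to 536, 3862 to 1658 and 2491 to 866. For the differences of effects they went from 509 to 710 and from 2872 to 4622. Median centring called 6 genes in fully grown oocytes, 6 in MII oocytes and 6 between epiblast and visceral endoderm. Over all genes it called 2185, 3301 and 5149 (2107, 2545 and 5347 as reported). Without a filter the effect was called for 0 genes in fully grown oocytes, 1 in MII oocytes and 12 at late 2-cell, and the difference of effects for 1 gene at each of the first 3 steps. Of the 36036 genes then tested, 2190, 3408 and 3841 were called for these effects, and 82, 146 and 496 for these differences. TPM gave 1 in MII oocytes and 0 for the difference of effects between late 1-cell and early 2-cell, where a pseudocount of 0.1 gave 1, no variance trend 1 and the compared stages alone 0. Over all genes TPM called 2567 and 364. For that difference the pseudocount called 267, no variance trend 477 and the compared stages alone 43 of 12770. With the compared groups alone the effect was called for 2 genes at early 2-cell, and 7 genes differed between extraembryonic ectoderm and visceral endoderm. Over all genes 1193 of 11780 and 3723 of 12457 were called there. The short-gene covariate gave 20 genes for epiblast against visceral endoderm, 9 for extraembryonic ectoderm against epiblast and 13 against visceral endoderm. Of the 13914 genes tested it called 7311, 4246 and 5032 in these contrasts. The lower core sum of the extraembryonic knockout (log2 ratio -0.038) became 0.035 with TPM. The cause was not tested in any of these. Of the values of single called genes 3908 kept their call, 515 lost it and none changed sign.

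Replicate numbers were not taken as pairs, since the labels tie them to nothing; same-numbered control and knockout libraries correlated at -0.08 to 0.14 in total RNA, and at 0.59 in epiblast and 0.42 in visceral endoderm with 2 pairs each, while same-numbered epiblast and visceral endoderm libraries correlated at -0.30 in controls and -0.38 in knockouts. With a replicate block 2 genes were called at early 2-cell, 4 between epiblast and visceral endoderm and 1 between extraembryonic ectoderm and visceral endoderm, and the other counts stayed within 1.5 times. Over all genes the block gave 1532, 4693 and 2308 calls in these contrasts (2046, 5347 and 3140 as reported).

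With 1 library left out, the effect was called for 0 to 1 genes in fully grown oocytes, 0 to 2 in MII oocytes, 4 to 11 at late 1-cell, 2 to 5 at early 2-cell, 13 to 22 at late 2-cell and 0 to 0 in each lineage at day 6.5. The changes between stages were called for 3 to 5, 10 to 10, 32 to 34 and 27 to 31 genes in controls and 9 to 12, 5 to 11, 33 to 37 and 22 to 26 in knockouts, and their differences for 0 to 0, 0 to 0, 0 to 2 and 8 to 17. Lineages differed in 5 to 13 genes (epiblast and visceral endoderm), 1 to 4 (extraembryonic ectoderm and epiblast) and 2 to 3 (extraembryonic ectoderm and visceral endoderm). The extraembryonic effect could not be refitted without its only control.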
